A study of Sinibotia superciliaris with 2 samples.

Results

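The actin, spectrin and microtubule cytoskeleton genes of Sinibotia superciliaris skin were compared between black skin and yellow skin. Members were chosen by protein name: a unigene (an assembled transcript cluster of the files) entered when the description of its closest protein named actin, spectrin, filamin, tubulin, dynein, dynactin, a microtubule protein, cofilin, gelsolin, villin, formin, talin, vinculin, an ankyrin, a coronin or a septin. Names of muscle proteins, kinases, chromatin and ubiquitin proteins, and the skeletal muscle actin ACTS, were left out. This gave 73 of the 5675 unigenes with a Swiss-Prot match, grouped by Swiss-Prot entry name into 53 of 4058 genes. The letters of formin also occur inside "transforming" and "ADP-forming". Those words brought in 13 further unigenes of 8 genes, such as TGFB3, a growth factor, and SUCB1, an enzyme of the citric acid cycle, which were set aside because of their names.

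Black and yellow skin was taken from 6 wild-caught adults of this loach (6.25 ± 0.30 g, 8.75 ± 0.20 cm), and each colour gave 1 RNA sequencing library. The labels give no treatment, and they state neither what the ± values are nor whether RNA of several fish was pooled. The libraries hold 35386871 reads from black skin and 38323075 reads from yellow skin. With 1 library per colour no difference below has a replicate check or a p-value, and each describes these libraries. Levels are in RPM, reads per 1000000 reads of the library. Ratios are black over yellow, with a 95% interval that covers counting error only. Log2 ratios are on the scale of RPM + 1, which understates the differences of low genes, and all fold limits below are set on that scale. A gene with few reads can therefore have a ratio of RPM past a limit and not be counted.

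The cytoskeleton is built of filaments and the proteins that shape them. Actin filaments are nucleated by formins and by the Arp2/3 complex, turned over with the help of coronins, and tied to each other and to the membrane by filamins, talins, ezrin and the spectrin and ankyrin lattice. Microtubules, made of alpha and beta tubulin and started from gamma tubulin, carry dynein motors towards their minus ends and kinesins mostly towards their plus ends. Septins form a further class of GTP-binding filaments. In fish melanophores, the black pigment cells of the skin, dynein gathers melanosomes at the cell centre, while kinesin and myosin V spread them.

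As a set, the cytoskeleton genes had a median ratio near that of the annotated genes, which hold 4.55% of the unigenes. Of the 53 genes, 39 were measured, averaging 1 RPM or more, and 14 fell below that minimum. The median log2 ratio of the 39 was 0.21, against 0.21 for all 3644 measured annotated genes. The 39 had a standard deviation of 0.38, beside 0.30 for all annotated genes. These values are not like for like, because for members only the unigenes taken by the rule were summed. Whether the members spread more widely was not tested. Within 1 standard deviation of all annotated genes from their median lay 26 of the 39. The share of all genes within it was not counted, so this number does not compare the members with other genes. The log2 ratio was above 0 in 30 of the 39 genes, as it was in 80.3% of all annotated genes. After TMM scaling, which put the median of all annotated genes at 0.03, it was above 0 in 21 of the 39. The libraries also differ in 2 unannotated unigenes, the most abundant of the files, with 6.81% of all reads in black skin and 17.0% in yellow skin. With totals that leave these 2 out, the median log2 ratio was 0.06 for the cytoskeleton genes and 0.05 for all annotated genes. Each gene is therefore read against the median ratio of all annotated genes, 1.17.

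The limit of 1.5-fold towards black skin was passed by 6 of the 39 genes, or 15.4%, where 6.81% of all annotated genes passed it. They were SPTN2, FLNC, SEPT6, TBG1, FMN and SYNE1. For members only the unigenes taken by the rule were summed, and for all annotated genes every unigene of a name. With every unigene of a name summed, 5 members passed, and SYNE1 did not. Towards yellow skin it was passed by 2 genes, DYHC and ASB14, or 5.13%, beside 1.43% of all genes. SPTN2 was the single gene at least 2-fold apart (2.56%, beside 0.960% of all genes, of which 0.823% lay towards black and 0.137% towards yellow skin). Under TMM scaling, which moved the median log2 ratio of all annotated genes by -0.17, SPTN2, FLNC and SEPT6 were still past 1.5-fold in black, beside 2.77% of all genes, and DYHC and ASB14 in yellow, beside 2.69%. The interval of the ratio lay wholly above the median ratio of 1.17 in 8 genes (20.5%, beside 19.0% of all genes) and wholly below it in 10 (25.6%, beside 20.0%), so by this rule the shares were near those of all genes.

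**Figure D1:**
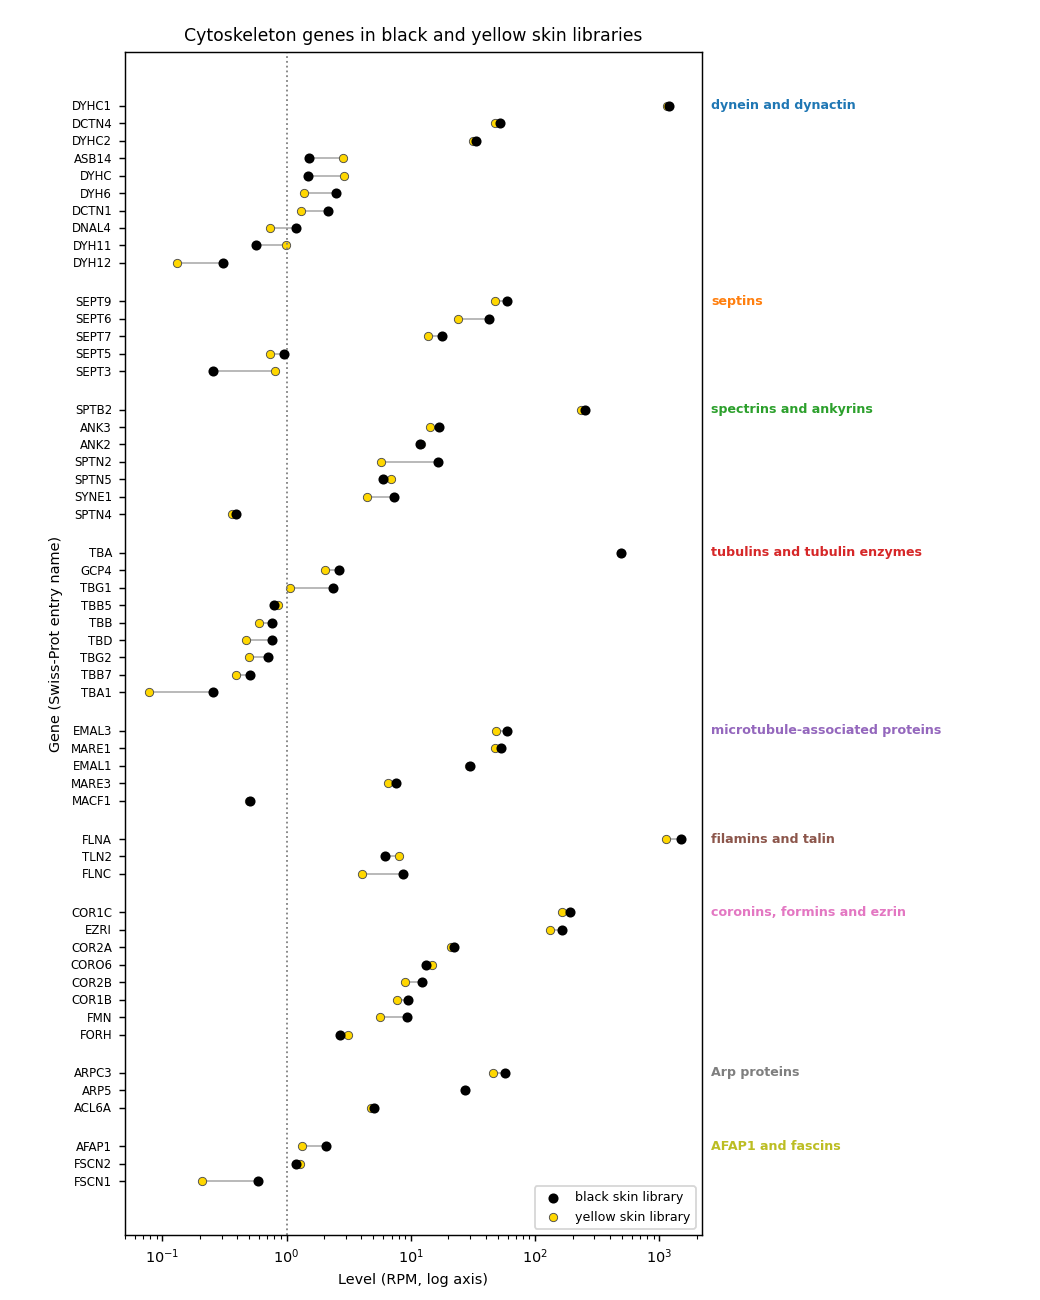
Level of each of the 53 cytoskeleton genes in RPM (log axis) in the black skin library (black points) and the yellow skin library (yellow points), 1 library each, grouped by role; the dotted line marks 1 RPM. FLNA, DYHC1 and TBA sit far to the right, and for most genes the points lie close together.

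All 53 genes together held 4389 RPM in black skin and 3806 RPM in yellow skin (ratio 1.15, interval 1.14 to 1.16). Filamin A, cytoplasmic dynein heavy chain and alpha tubulin alone carried 72.2% of these reads in black skin and 72.6% in yellow skin, and these 3 did not share a ratio. FLNA was higher in black skin, while DYHC1 and TBA were close to equal. Without FLNA the ratio of the sum was 1.08 (1.07 to 1.09), a sum that DYHC1 and TBA still dominate. Without all 3 it was 1.17 (1.15 to 1.19). The sum over all annotated genes had a ratio of 1.16 (1.158 to 1.162).

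Among the filamins and talin, the crosslinkers and membrane linkers of actin, the members went in both directions. FLNA, filamin A, which ties actin filaments into networks and anchors them to membrane proteins, had 1492 RPM in black skin and 1124 RPM in yellow skin (ratio 1.33, interval 1.30 to 1.35). With 52826 and 43081 reads it was the most deeply counted member, and its interval lay wholly above the median ratio of all genes. FLNC, filamin C, in mammals the filamin of striated muscle, had 8.62 RPM in black skin and 4.02 RPM in yellow skin (ratio 2.14, interval 1.62 to 2.86) and a log2 ratio of 0.94. Its unigenes pointed the same way. The shorter, c12606_g1, which carries the actin-binding calponin homology domain, had a ratio of 2.64 (1.79 to 3.95), and c103209_g1, with filamin repeats, 1.67 (1.095 to 2.56). TLN2, talin 2, which couples integrins to actin, was on the other side with 6.21 RPM in black skin and 8.03 RPM in yellow skin (ratio 0.774, interval 0.600 to 0.994). Its unigenes had ratios of 0.815 and 0.716, each with an interval that includes 1.

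Skeletal muscle markers gave values on both sides too. The 8 annotated of 20 listed markers summed to 2228 RPM in black skin and 2379 RPM in yellow skin, with a median log2 ratio of -0.07, a range of -0.45 to 1.26 and none at 0. Of these, 5 were below 0, among them PGAM2, a glycolytic enzyme of muscle, at -0.45. AT2A1, a calcium pump of fast muscle, was at 1.26. The part of muscle in the ratios of FLNC, TLN2 and CORO6 was not tested. In such bulk tissue, fewer cells of a type and less RNA per cell cannot be told apart.

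The spectrins and ankyrins, which form the lattice under the cell membrane, held the widest gap among the members. Of 7 genes, 6 were measured, with a median log2 ratio of 0.17 and a range of -0.18 to 1.36. SPTN2, named after beta-III spectrin, had 16.4 RPM in black skin and 5.79 RPM in yellow skin (ratio 2.83, interval 2.27 to 3.56), from 581 and 222 reads. SYNE1, nesprin-1, which links the nuclear envelope to actin, had 7.26 RPM in black skin and 4.41 RPM in yellow skin (ratio 1.65, interval 1.24 to 2.19). This value comes from 1 of 6 unigenes of that name, the one whose description holds the word spectrin. All 6 together had 133.8 RPM in black skin and 113.4 RPM in yellow skin (ratio 1.18, interval 1.11 to 1.25), which is at the median of all genes. ANK3, ankyrin-G in mammals, had 16.8 RPM in black skin and 14.3 RPM in yellow skin, and ANK2 had 11.8 RPM in black and 12.1 RPM in yellow. The intervals of both ankyrins, 0.996 to 1.39 and 0.809 to 1.19, include 1. SPTN5, a large beta spectrin, had a ratio of 0.866 (0.665 to 1.13).

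The name SPTN2 rests on 1 unigene, and the unigenes named as beta spectrins differed in their ratios. That unigene, c110764_g1, was matched to SPTN2 by translated nucleotide search but to SPTB2, beta-II spectrin, by protein search. It shares its assembly component with c110764_g2, a unigene of SPTB2 with 11.8 RPM in black skin and 8.16 RPM in yellow skin (ratio 1.45, interval 1.17 to 1.79). Together this component had 28.2 RPM in black skin and 14.0 RPM in yellow skin (ratio 2.02, interval 1.74 to 2.36). The closest proteins of both unigenes are zebrafish isoforms of spectrin beta chain, brain 1. Another unigene with that description, c111986_g1, had 61.9 RPM in black skin and 42.8 RPM in yellow skin (ratio 1.45, interval 1.32 to 1.59).

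The other unigenes of SPTB2 did not share this direction. The closest zebrafish protein of c111809_g2 is the erythrocyte beta spectrin; it had 108.9 RPM in black skin and 109.2 RPM in yellow skin (ratio 0.997, interval 0.937 to 1.06). c111505_g1, closest to the non-erythrocytic beta spectrin 1, had 70.0 RPM in black skin and 73.2 RPM in yellow skin (ratio 0.957, interval 0.886 to 1.03). The intervals of these 2 unigenes do not overlap those of c111986_g1, c110764_g2 and c110764_g1. Both searches matched c111505_g1 and c111986_g1 to SPTB2, so names do not separate the unigenes by direction. The split was made here by their ratios. The sum over the 4 unigenes of SPTB2, 252.7 RPM in black skin and 233.3 RPM in yellow skin, with a ratio of 1.08 (1.04 to 1.13), thus hides unigenes that differ. Joined by protein search, which moves c110764_g1 to SPTB2, the log2 ratio of SPTB2 was 0.17 and no cytoskeleton gene was 2-fold apart. Of the 12 genes with more than 1 unigene, 5 had unigenes with ratios on both sides of the median ratio of all genes. Apart from SPTB2, these were COR1C, DYH11, SEPT7 and SPTN5, where the intervals of the unigenes overlap. The share among all annotated genes was not counted.

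**Figure D2:**
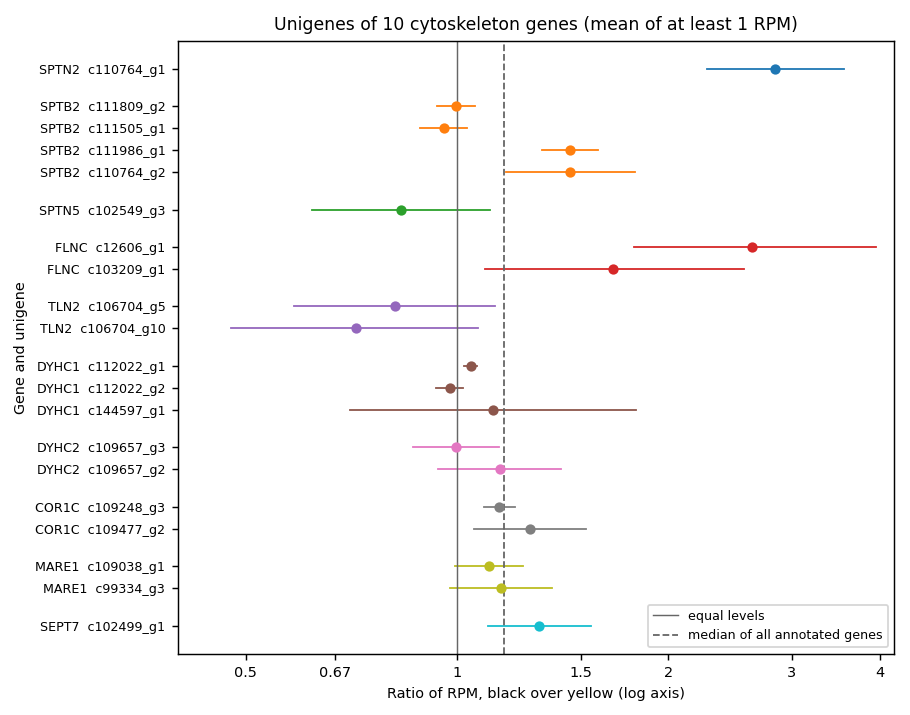
Black over yellow ratio of RPM (log axis) for the unigenes of 10 cytoskeleton genes, for unigenes with a mean of at least 1 RPM. Points are ratios from 1 library per colour, bars the 95% counting intervals, the solid line equal levels and the dashed line the median of all annotated genes. The beta spectrin unigenes of SPTB2 fall near 1.0 or near 1.45, and SPTN2 lies at 2.83.

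The 3 measured septins all lay above the median of all genes, with log2 ratios of 0.31 to 0.82. SEPT6, a subunit of the septin hexamer and octamer, had 42.7 RPM in black skin and 23.8 RPM in yellow skin (ratio 1.79, interval 1.59 to 2.02), from 1512 and 913 reads. It was the member with the most reads among those past 1.5-fold. SEPT7, also a subunit of septin hexamers and octamers, had 17.8 RPM in black skin and 13.7 RPM in yellow skin (ratio 1.30, interval 1.098 to 1.53). SEPT9, whose closest zebrafish protein is called septin-12, had 59.0 RPM in black skin and 47.3 RPM in yellow skin (ratio 1.25, interval 1.14 to 1.37). The intervals of SEPT7 and SEPT9 include the median ratio, and that of SEPT6 does not. SEPT3, a septin of neurons, was below the minimum with 9 black and 31 yellow reads, a ratio of 0.314 (0.0834 to 0.938).

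Immune markers lay on the black side as well, and fibroblast and matrix markers were mixed. The 4 annotated of 15 listed immune markers summed to 145.1 RPM in black skin and 86.2 RPM in yellow skin, with log2 ratios of 0.57 to 0.89 that span the value of SEPT6. The 10 annotated of 13 listed fibroblast and matrix markers summed to 1436 RPM in black skin and 926 RPM in yellow skin (ratio 1.55, interval 1.52 to 1.58), with a range of -0.09 to 1.44 over the 7 measured, of which 4 lay above the median of all genes. CO1A1, a collagen I chain, carried most of that sum (1214 RPM in black skin, 779.6 RPM in yellow skin). Melanophore markers, 4 annotated of 12 listed, summed to 21.7 RPM in black skin and 2.01 RPM in yellow skin. The 4 annotated of 16 listed keratinocyte markers summed to 1262 RPM in black skin and 1026 RPM in yellow skin (ratio 1.23, interval 1.21 to 1.25). The 3 annotated of 12 listed markers of neurons and glia summed to 166.7 RPM in black skin and 143.8 RPM in yellow skin, and the 7 of 14 of endothelium and blood to 126.5 RPM in black skin and 112.9 RPM in yellow skin. The sum for endothelium and blood leaned to black skin through TFR1, the transferrin receptor (68.1 RPM in black skin, 50.4 RPM in yellow skin), while the median log2 ratio of its 7 markers was -0.11, with a range of -1.07 to 0.43 and 3 above 0. Among the 3 above 0 was PGFRA, a receptor not specific to endothelium or blood, with 17.4 RPM in black skin and 13.4 RPM in yellow skin. None of the markers on these lists was at 0 in either library. Their part in the ratios of SEPT6, FLNA and the other members was not tested.

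The coronins, formins and ezrin, which nucleate, turn over or anchor actin filaments, numbered 8 measured genes with log2 ratios from -0.14 to 0.62 (median 0.23). FMN, formin-1, which builds unbranched filaments, had 9.29 RPM in black skin and 5.69 RPM in yellow skin (ratio 1.63, interval 1.28 to 2.10). FORH, a formin whose Swiss-Prot match is a Dictyostelium protein and whose closest zebrafish protein is formin-like protein 13, had 96 black and 119 yellow reads, a ratio of 0.874 (0.585 to 1.30). EZRI, ezrin, once called villin 2, which ties actin to the membrane of microvilli and ruffles, had 165.1 RPM in black skin and 131.3 RPM in yellow skin (ratio 1.26, interval 1.19 to 1.33). COR1C, a widely expressed coronin, had 189.6 RPM in black skin and 163.9 RPM in yellow skin (ratio 1.16, interval 1.102 to 1.22), at the median of all genes. The remaining coronins, COR2B, COR1B, COR2A and CORO6, had ratios between 0.898 and 1.36. The lowest was CORO6, in mammals a coronin of muscle, with 13.3 RPM in black skin and 14.8 RPM in yellow skin (interval 0.753 to 1.07).

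Of the 3 Arp proteins, ARPC3 and ACL6A had intervals that include the median ratio of all genes, and that of ARP5 lay wholly below it. ARPC3, a subunit of the Arp2/3 complex that starts branched actin networks, had 57.2 RPM in black skin and 46.0 RPM in yellow skin (ratio 1.24, interval 1.13 to 1.36). The other 2, ARP5 and ACL6A, are actin-related proteins of nuclear chromatin remodelling complexes in mammals and yeast, and not parts of the cytoskeleton. ARP5 had 27.4 RPM in black skin and 27.1 RPM in yellow skin. ACL6A had 5.08 RPM in black and 4.75 RPM in yellow. Their ratios of 1.01 (0.893 to 1.15) and 1.07 (0.791 to 1.45) have intervals that include 1. AFAP1, named after an adaptor on actin filaments, had 74 black and 51 yellow reads, a ratio of 1.57 (0.924 to 2.71). FSCN2, a fascin that bundles filaments, had 42 black and 49 yellow reads, a ratio of 0.928 (0.493 to 1.73). Cofilin, gelsolin, vinculin and talin 1 were not among the members found and were not analysed here. Actin itself was not among the members either. The actin names ACT2 and ACTA were measured, but the rule did not take them.

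**Figure D3:**
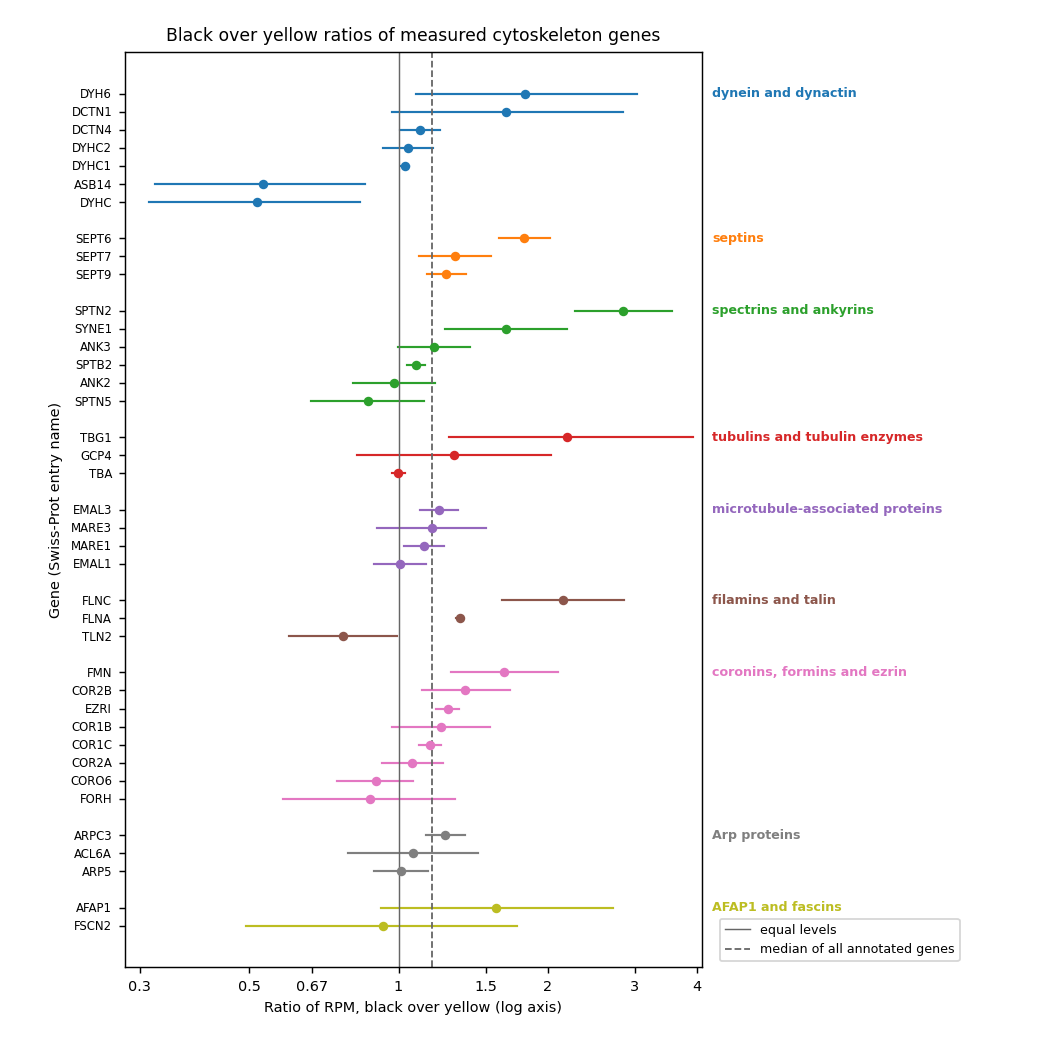
Black over yellow ratio of RPM (log axis) for the 39 measured cytoskeleton genes, grouped by role, from 1 library per colour. Points are ratios, bars the 95% counting intervals, the solid line equal levels and the dashed line the median of all annotated genes. The points furthest to the right are SPTN2 (2.83), TBG1 (2.19) and FLNC (2.14), while DYHC and ASB14 lie on the yellow side.

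The abundant microtubule motor and tubulin genes had nearly the same level in both skins. DYHC1, the heavy chain of cytoplasmic dynein 1, which carries cargo such as melanosomes towards microtubule minus ends, had 1190.4 RPM in black skin and 1153 RPM in yellow skin. Its ratio of 1.03 (1.01 to 1.05) has an interval wholly below the median of all genes. Its 2 main unigenes gave 1.05 (1.02 to 1.07) and 0.976 (0.933 to 1.02). DYHC2, the dynein heavy chain of transport inside cilia, had 33.3 RPM in black skin and 31.9 RPM in yellow skin (ratio 1.05, interval 0.932 to 1.17). DCTN4, a subunit of the dynactin complex that dynein needs for its cargo, had 52.6 RPM in black skin and 47.5 RPM in yellow skin (ratio 1.11, interval 1.01 to 1.21). DCTN1, the dynactin subunit that binds microtubules, had 76 black and 50 yellow reads, a ratio of 1.65 (0.968 to 2.85).

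TBA, an alpha tubulin whose closest zebrafish protein is tubulin alpha 8 like 2, had 487.5 RPM in black skin and 488.3 RPM in yellow skin (ratio 0.998, interval 0.970 to 1.03). After TMM scaling its log2 ratio was -0.19 and that of DYHC1 -0.14, so the near equality of these genes holds for RPM and not after that scaling. Per kilobase of predicted coding sequence, TBA had 359.5 RPM in black skin and 360.1 RPM in yellow skin, FLNA 201 RPM in black and 151 RPM in yellow, and the longest unigene of DYHC1 96.5 RPM in black and 92.3 RPM in yellow. The other main unigene of DYHC1, c112022_g2, with 648 coding bases, had 328 RPM in black and 337 RPM in yellow on this scale, so the level of DYHC1 per length depends on the unigene. Reads on untranslated parts are counted as well. Near-identical tubulin copies cannot be told apart in these counts.

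Gamma tubulin, the seed of new microtubules, was counted thinly. TBG1 had 83 black and 41 yellow reads, or 2.34 RPM in black skin and 1.07 RPM in yellow skin (ratio 2.19, interval 1.26 to 3.92). GCP4, a subunit of the gamma-tubulin ring complex, had 93 black and 78 yellow reads, a ratio of 1.29 (0.825 to 2.03). The wide intervals of both reflect these read numbers. The other 6 tubulin entries, every beta tubulin entry among the members included, were below the minimum. Among them TBA1, TBB and TBB7 have their closest proteins in a ciliate, a coral and a marine protist, with at most 27 reads in either library. Only 4.55% of the unigenes are annotated, so these entries do not give the level of beta tubulin in the skin.

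Microtubule-associated proteins stayed within a narrow band. MARE1, the plus-end binding protein EB1, had 53.0 RPM in black skin and 47.2 RPM in yellow skin (ratio 1.12, interval 1.02 to 1.23), and its unigenes gave 1.11 and 1.15. MARE3, the related EB3, had a ratio of 1.17 (0.906 to 1.5). EMAL3 and EMAL1, members of the echinoderm microtubule-associated protein family, had ratios of 1.21 (1.105 to 1.32) and 1.01 (0.893 to 1.14). None of the 4 measured genes of this group passed 1.5-fold, beside 6.81% of all genes towards black skin and 1.43% towards yellow skin. With so few genes the count does not set the group apart.

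The axonemal dyneins, motors of beating cilia, were low in both libraries and went in different directions. DYH6 had 88 black and 53 yellow reads in 4 fragments, each with a ratio above 1, and a summed ratio of 1.80 (1.09 to 3.03). DYHC, whose closest protein is an axonemal heavy chain 17 of a bat, had 53 black and 111 yellow reads, a ratio of 0.517 (0.313 to 0.836). ASB14, a name of an ankyrin repeat and SOCS box protein, had 54 black and 110 yellow reads, a ratio of 0.532 (0.322 to 0.857). Its unigene entered because its closest zebrafish protein is called dynein heavy chain 12, but the domain listed for it is an ankyrin repeat. Without ASB14, the 5 axonemal entries, DYH6 and DYHC included, summed to 6.04 RPM in black skin and 6.13 RPM in yellow skin (ratio 0.986, interval 0.752 to 1.29).

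The 14 genes below the minimum had between 3 and 42 reads in a library. Besides SEPT3, these were SEPT5, SPTN4, DNAL4, DYH11, DYH12, MACF1, FSCN1, TBD, TBG2, TBB5, TBA1, TBB and TBB7. The ratio was above 1 in 11 of them, beside 80.3% of the measured annotated genes, so this count was near the share of all genes. In 13 the interval included 1, so for these a difference was not detectable at this depth. For FSCN1 this holds for the 1 unigene the rule took; with the other unigene of that name the sum was 8.90 RPM in black skin and 6.68 RPM in yellow skin (ratio 1.33, interval 1.05 to 1.70). TBG2 shares its assembly component with TBG1, and FSCN1 with FSCN2, so reads of these pairs may be split between them.

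Names rest on protein matches to other species. The closest protein was one of zebrafish for 60 of them, and for 5 it was not one of a fish. The domain listed for a unigene was a spectrin repeat in 10, a septin GTPase domain in 7, a calponin homology domain in 7, a dynein heavy chain domain in 6 and a tubulin domain in 5. Each count is for a single domain name, so unigenes listed under other dynein or tubulin domain names are not in it. For c106704_g5, a unigene of TLN2, the listed domain was that of apolipoproteins. For 4 unigenes the nucleotide and protein searches gave different names.

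Other genes of the pathway, taken from lists of related motors and regulators, mostly lay within 1.5-fold, as most annotated genes did. None of 16 measured genes of the non-muscle myosin list passed 1.5-fold, beside 6.81% of all genes towards black skin and 1.43% towards yellow skin. Their log2 ratios had a median of 0.16. With 16 genes the count past 1.5-fold does not set this list apart. The list also holds MYPT1, which is not a myosin, and MYH11, in mammals the smooth muscle myosin. MYH9, non-muscle myosin IIA, had 2516 RPM in black skin and 2178 RPM in yellow skin (ratio 1.16, interval 1.14 to 1.17). MYO10, the filopodial myosin, was the lowest with 70.2 RPM in black skin and 85.8 RPM in yellow skin (ratio 0.818, interval 0.759 to 0.881). MYPT1, the targeting subunit of myosin phosphatase, was the highest with a ratio of 1.30 (1.16 to 1.46).

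Of 19 measured kinesins, 3 passed 1.5-fold towards black skin, where 6.81% of all genes did, and none towards yellow skin, where 1.43% did. Their median log2 ratio was 0.30, beside 0.21 for all genes. KI18A, a kinesin of mitotic chromosome alignment, had 2.32 RPM in black skin and 0.548 RPM in yellow skin (ratio 4.23, interval 2.11 to 9.29). The other 2, named here after their values were seen, were KIF11, the motor of the mitotic spindle, at 1.80 (1.40 to 2.31), and KI21B at 1.72 (1.41 to 2.11). KINH, the conventional kinesin heavy chain, had 100.6 RPM in black skin and 81.7 RPM in yellow skin (ratio 1.23, interval 1.15 to 1.32). KIF5C, a related heavy chain of neurons in mammals, was the lowest, at 0.715 (0.359 to 1.38).

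Of 9 measured bundlers and crosslinkers, none passed 1.5-fold, beside 6.81% of all genes towards black skin and 1.43% towards yellow skin. A list of this length is too short for that count to set it apart. MOES, moesin, a relative of ezrin, had 88.8 RPM in black skin and 62.5 RPM in yellow skin (ratio 1.42, interval 1.32 to 1.53). ACTN2, in mammals the alpha-actinin of striated muscle, had 80.6 RPM in black skin and 110.8 RPM in yellow skin (ratio 0.727, interval 0.680 to 0.778). TPM4, a tropomyosin, had a ratio of 1.11 (1.08 to 1.13). None of 6 actin nucleation promoters and monomer binders passed 1.5-fold, and this list is too short for that count to differ from the same shares. Among them, WIPF1 had a ratio of 1.24 (1.095 to 1.40), ABI2 1.22 (1.09 to 1.37) and PROF2, a profilin, 1.02 (0.911 to 1.15).

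**Figure D4:**
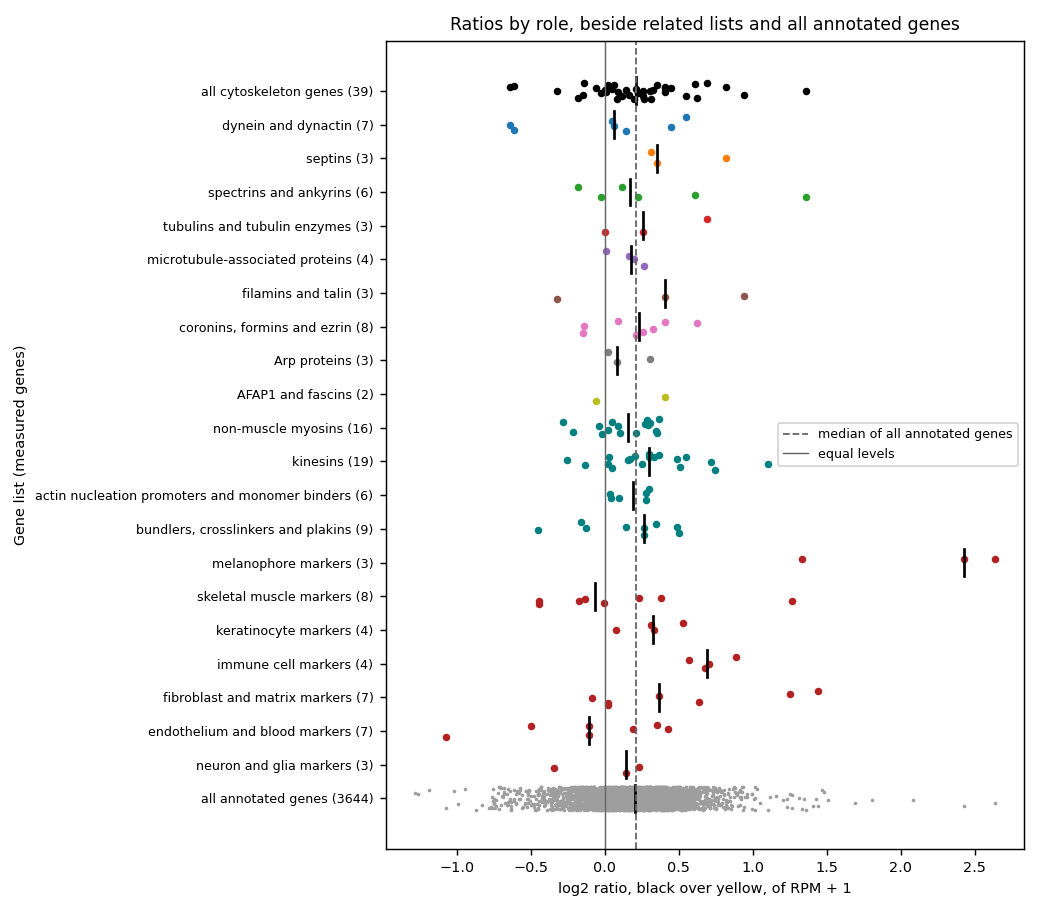
Log2 ratio (black over yellow, RPM + 1) of each measured gene, with the number of genes per list in brackets: all 39 cytoskeleton genes and their roles, related pathway lists (teal), cell type markers (red) and all 3644 annotated genes (grey). Bars mark the median of lists of 3 or more genes; the cytoskeleton median of 0.21 falls on the dashed line, the median of all annotated genes.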

How the data were processed

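The authors deposited 1 normalised signal per unigene and library; per the labels, Trizol was the extraction reagent and Illumina protocols made the libraries. The submitters' processing notes name GRCz11 without saying what for. The assembler, aligner and counter: not given in the sources used here. The deposited signal sums to 999612 for black skin and 999622 for yellow skin once repeated rows (128781 rows, 124650 unigenes) are dropped, so it was read as RPM. Whole reads were recovered from the value steps (1 read is 0.0282 RPM in black and 0.0261 RPM in yellow; the lowest value, 0.5 of a read, was taken as 0), whole within 0.1 read for 100% of the values of black skin and 99.9992% of those of yellow skin. At 2 reads there were 8897 black and 9992 yellow unigenes, against 6459 and 7308 at 1 read, so mates appear to have been counted separately, and intervals count each pair once. The deposited annotation, with its alignment score and E-value columns, was used for names only; 4.55% of the unigenes have an entry there, and the table ends inside a record.

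Unigenes of 1 Swiss-Prot BLASTX entry name were summed. The log2 ratio used a pseudocount of 1 and no further scaling; genes needed a mean of at least 1 RPM. Intervals are Clopper-Pearson at 95%, conditional on the sum of both libraries. PCR copies are not allowed for. With 1 library per colour no test was made. Named were members past 2-fold, the 2 with the largest absolute log2 ratio and the 2 most abundant per role, and the 5 highest and 5 lowest at a mean of at least 10 RPM (32 genes); other members are named to account for them all. From each related list, the highest, the lowest and the most abundant gene were named. 1 further related list is not reported here. The members, lists and rules were chosen with earlier results of these data known. Alternatives were TMM (edgeR 4.0.16, on recovered reads) and median-of-ratios scaling, other totals, pseudocounts, minimums, joins and annotation limits. The steps were tested on simulated data. Python 3.11.15, pandas 2.3.3 and SciPy 1.17.1 were used.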

Additional observations from a re-analysis of the deposited data

How the results depend on the processing

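No paired analysis was possible because there is 1 library per colour. The median log2 ratio of the members, 0.21, was 0.0307 with TMM scaling, 0.0668 with median-of-ratios scaling and 0.0573 with totals that leave out the 2 most abundant unigenes; the ratio of the summed signal, 1.15, was 1.01, 1.04 and 1.03 under these settings, in that order. The count of genes at least 1.5-fold higher in black, 6, was 3 with TMM scaling, 4 with median-of-ratios scaling, 4 with those other totals, 9 with a pseudocount of 0.1 and 3 with a pseudocount of 5. It was 5 over all unigenes of a name, when joined by protein search, at a minimum of 5 RPM and without doubtful names. The count of genes at least 1.5-fold higher in yellow, 2, was 0 with a pseudocount of 5, 0 at a minimum of 5 RPM and 1 without doubtful names. The count of genes at least 2-fold apart, 1, was 2 with the most abundant unigene per gene and 3 with a pseudocount of 0.1. It was 0 with a pseudocount of 5, 0 when joined by protein search and 0 without doubtful names. A different rule, an interval wholly beyond 1.5-fold, took 3 genes (FLNC, SEPT6 and SPTN2) and does not count genes 2-fold apart. Without doubtful names (closest protein not of a fish, or 2 searches in conflict) the ratio of the summed signal was 1.17. Of 402 recomputed log2 ratios of the 32 named genes, 362 stayed inside their counting interval and 40 left it. Most that left it did so under the settings that rescale the libraries. Other minimums and annotation limits left the log2 ratios as they were, so the count of 362 does not measure how stable the ratios are. No gene past 1.5-fold changed sign. Genes nearer to equal levels did change sign. With TMM scaling, for example, DYHC1 went from 0.046 to -0.14 and SPTB2 from 0.1145 to -0.0707. The reading of formin, the sum over all unigenes of a name, doubtful names and the rule of an interval beyond the median ratio were alternatives added after seeing the data, and all others were planned. Among the measured genes, FSCN2 had the fewest reads (42 in black skin, 49 in yellow skin).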
